A study of Mus musculus with 9 samples.

Results

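Oxidative phosphorylation joins the respiratory chain of the inner mitochondrial membrane to the synthesis of ATP. Complexes I and II feed electrons to complex III, cytochrome c carries them to complex IV, and the protons pumped by complexes I, III and IV drive the ATP synthase, complex V. The subunits come from both genomes of the cell, since the mitochondrial DNA is transcribed inside the organelle as long precursors while the other subunits are nuclear genes whose products are imported. Neural stem cells (NSCs) are known to rely largely on glycolysis, and their neuronal progeny to rely more on respiration.

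The 48 genes described here are subunits of the respiratory chain and of complex V, taken from the 48526 genes of the count table by a list of symbols. The rule uses no measured value, but the list was drawn up with earlier results of these data known. They are the 13 protein genes of the mitochondrial DNA (mt- genes) and 35 nuclear genes of complexes I to IV and cytochrome c. All 48 passed the expression filter, as did 18858 genes in all.

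The cells were NSCs of the subependymal zone (SEZ) of adult C57BL/6 mice a few months old, expanded as neurospheres with EGF and FGF. Differentiation was induced by culture on an adhesive substrate without EGF, with FGF kept, and the groups were undifferentiated cells (0 h) and cells at 1 h and 6 h. The authors state that cells fixed soon after induction were first seeded in medium with EGF and FGF. Whether this held for these libraries is not stated. Each group had 3 libraries, numbered as replicates 1 to 3 in the labels, and no group carried a mutation or transgene. Libraries sharing a number departed from the group means in the same way, and the replicate number was a block in the fits unless stated. The labels do not say what same-numbered libraries share or whether they came from separate mice, so p-values measure the spread between these samples only.

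Depth was between 65871454 and 105592597 counts per library. All 14 NSC markers were above 1 CPM (counts scaled to 1e+06 per library), with summed levels between 7367 and 9988 CPM, while the 9 microglial markers summed to 0.122 to 0.569 CPM and 3 of them had 0 counts in every library. Summed neuronal markers lay between 1417 and 2051 CPM at 0 h and between 1444 and 2142 CPM at 6 h, and summed oligodendrocyte lineage markers between 1773 and 2357 CPM at 0 h and between 2228 and 2598 CPM at 6 h. Summed astrocyte markers lay between 827 and 1047 CPM at 0 h and between 1033 and 1217 CPM at 6 h, endothelial and mural markers between 56.9 and 115 CPM at 0 h and between 35.6 and 56.5 CPM at 6 h, and ependymal markers between 47.4 and 88.9 CPM at 0 h and between 39.7 and 62.2 CPM at 6 h. The part of these markers in the results below was not tested. One library stood apart for the subunits: in replicate 3, 33 of the 35 nuclear subunits were highest at 1 h, against 16 in replicate 1 and 5 in replicate 2. The counts and medians of the subunits that this library moves are given with and without it.

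Before any comparison, the sequences limited what the counts of the mitochondrial genes can show. A stretch of chromosome 1 (chr1:24611535-24616197, minus strand, GRCm38) holds annotated pseudogenes that repeat a run of the mitochondrial DNA with at least 99% identity. The copy covered 99.1% of the mt-Nd3 transcript, 98.99% of mt-Nd4l, 99.6% of mt-Co2 and of mt-Atp6, 99.9% of mt-Co3, 63.6% of mt-Nd4, 31.3% of mt-Co1 and 21.1% of mt-Atp8. It covered no base of mt-Nd1, mt-Nd2, mt-Nd5, mt-Nd6 or mt-Cytb. These are shares in annotated pseudogenes, and the bases of the stretch between them were not searched. The gene counting of STAR is known to take only reads that map to a single place. For mt-Nd3, a complex I core subunit, 1 of 345 aligned bases differed from its pseudogene Gm28438. For mt-Co3, a core subunit of complex IV, none of 783 differed from Gm28437, and for mt-Cytb, the cytochrome b of complex III, the closest copy was Gm11410 on chromosome 4, with 81 of 1142 aligned bases different. Windows of 60 bases are shown for these pairs from the GENCODE M21 transcripts, because they show how far a read can tell gene from copy, and capitals mark the bases that differ within a pair (mt-Nd3 chrM:9459-9518, Gm28438 chr1:24613060-24613119 minus strand, mt-Co3 chrM:8968-9027, Gm28437 chr1:24613551-24613610 minus strand, mt-Cytb chrM:14687-14746, Gm11410 chr4:80004531-80004590).
mt-Nd3: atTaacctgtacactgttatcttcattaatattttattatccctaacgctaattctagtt
Gm28438: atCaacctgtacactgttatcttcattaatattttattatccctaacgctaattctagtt
mt-Co3: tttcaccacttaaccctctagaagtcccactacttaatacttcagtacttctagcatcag
Gm28437: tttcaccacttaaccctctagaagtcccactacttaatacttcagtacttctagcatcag
mt-Cytb: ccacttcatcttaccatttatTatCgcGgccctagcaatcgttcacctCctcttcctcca
Gm11410: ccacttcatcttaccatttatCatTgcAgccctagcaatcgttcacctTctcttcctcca

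The 5 mitochondrial genes without a near-identical copy had a median of 2836 CPM per kilobase, and the 5 genes with over 90% of their bases in the copy had a median of 29.0 CPM per kilobase. mt-Cytb was highest at 7666 CPM per kilobase (6907 to 8524 over the 9 libraries), followed by mt-Co1, the catalytic subunit of complex IV, at 7223 (6599 to 7642). These ranges overlapped, so the order of the 2 is not fixed by the libraries. mt-Nd1 (3457 to 5925) and mt-Nd2 (2325 to 3415), core membrane subunits of complex I, did not overlap with either of them. mt-Nd5 and mt-Nd4, which form proton channels of complex I, had 1018 and 1003 CPM per kilobase, and mt-Nd6, the subunit read from the other strand, had 614.

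The other genes sat far lower. mt-Co2, which takes the electrons from cytochrome c, had 72.1 CPM per kilobase and the ATP synthase subunit mt-Atp6 had 43.7. mt-Atp8, its neighbour, had 40.7, with 21.1% of its bases in an annotated pseudogene. Its other bases lie between mt-Co2 and mt-Atp6. The chromosome 1 bases between the pseudogenes of those genes (24614651 to 24614885) were not searched, so the share for mt-Atp8 is a lower limit. mt-Co3 had 29.0, mt-Nd3 21.6 and mt-Nd4l 10.1, and the counts of mt-Nd4l were only 144 to 307 per library. The pseudogenes of chromosome 1 were also counted, at 49.1 CPM per kilobase for the copy of mt-Co2 (Gm28661) and 6.59 for that of mt-Nd3. The levels of these copied genes are levels of the reads that could be placed. Reads were not counted by base, so dividing all counts of a gene by its bases outside the annotated pseudogenes gives an upper limit there. This limit was 2754 CPM per kilobase over 502 bases for mt-Nd4 and 10508 over 1062 bases for mt-Co1. By the same division mt-Atp8 came to 51.5 over 161 bases, for which a copy was not searched. mt-Co1 also had a copy of 97.6% identity on chromosome 2, Gm13340, at a mean of 63.0 CPM, against 11159 CPM for mt-Co1 itself.

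**Figure D1:**
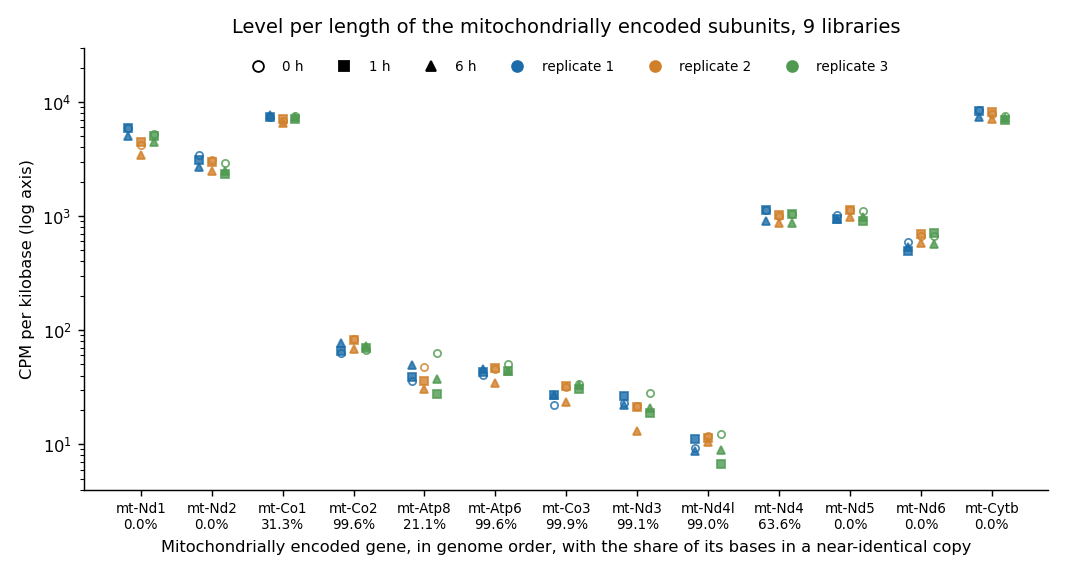
Level per length (CPM per kilobase, log axis) of the 13 mitochondrially encoded genes in genome order in each of the 9 libraries, with marker shape for the time point and color for the replicate. The percentage under each name is the share of bases in an annotated copy of at least 99% identity. Genes without a copy lie between 492 and 8524 CPM per kilobase, and genes with over 90% in the copy between 6.74 and 84.5.

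Some mitochondrial genes also overlap each other. mt-Atp8 and mt-Atp6 share positions 7927 to 7969, mt-Nd4l and mt-Nd4 share 10167 to 10173, and mt-Nd5 and mt-Nd6 share 13552 to 13565 on opposite strands. The libraries were stranded per the labels, but the strand setting of the counting is not stated in the sources used here, so reads of the mt-Nd5 and mt-Nd6 overlap cannot be assigned.

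The nuclear subunits covered a narrower range, with a median of 64.97 CPM per kilobase of exon. The highest were Cox4i1 (complex IV) at 178 CPM per kilobase, Ndufa4 at 170, the Rieske iron-sulfur protein Uqcrfs1 (complex III) at 149, the membrane anchor Sdhd (complex II) at 147 and Cox7c (complex IV) at 129. Ndufa4 was named as a complex I subunit and is now known to be part of complex IV, where it is placed here. The lowest were the accessory complex I subunits Ndufb5 at 15.003 and Ndufb8 at 17.7 and the complex IV subunit Cox5a at 22.2. Ndufb5 (13.5 to 16.7 over the 9 libraries) and Ndufb8 (15.8 to 20.5) overlapped. The order also depends on the length used, here all annotated exon bases of a gene (4995 for Ndufb5, against 3127 in its longest transcript). Cycs, the somatic cytochrome c, stood at this median, and the gene Gm10053 matched it with 99.9% identity over 946 bases, so its counts are also uncertain. Cox5b and Cox7c had stretches of over 99% identity in other genes as well, each of those genes with a mean under 5 CPM.

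At 6 h, subunits of complex I encoded in the mitochondrial DNA were lower than at 0 h. Of the 13 mitochondrial genes, 5 fell and none rose, and the 5 were mt-Nd1, mt-Nd2, mt-Nd3, mt-Nd4 and mt-Nd5. Over all tested genes, 17.5% were called lower and 17.4% higher in this comparison, at a Benjamini-Hochberg adjusted p under 0.05 in the quasi-likelihood test of edgeR with the replicate block. The median log2 fold change was -0.25 over the 7 complex I genes and -0.19 over the 13, against 0.00 over all genes tested. In bulk libraries, fewer cells of one kind and less RNA per cell cannot be told apart.

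mt-Nd1 (ENSMUSG00000064341, chrM 2751 to 3707), which sits where complex I binds ubiquinone, had 5669.9, 3991 and 5049 CPM at 0 h in replicates 1 to 3. The values at 6 h were 4804, 3308 and 4312 CPM. Each replicate was lower at 6 h than at 0 h, although the groups overlapped because replicate 2 was low at each time point. The log2 fold change was -0.25 ± 0.05 (SE, 3 pairs; edgeR, adjusted p = 0.00332).

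mt-Nd2 (chrM 3914 to 4951) had 3545, 3199 and 3059 CPM at 0 h and 2810.2, 2563 and 2574 CPM at 6 h. The 2 groups did not overlap, and the log2 fold change was -0.30 ± 0.07 (edgeR, adjusted p = 0.00324). mt-Nd4 (chrM 10167 to 11544) went from 1553, 1367 and 1447 CPM to 1256, 1203 and 1198 CPM, again without overlap, a log2 fold change of -0.25 ± 0.05 (edgeR, adjusted p = 0.00118). mt-Nd1, mt-Nd2 and mt-Nd4 passed the test whichever of the 9 libraries was left out, with adjusted p of edgeR up to 0.0306.

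The calls of mt-Nd5 and mt-Nd3 were less firm. mt-Nd5 (chrM 11742 to 13565) had 1877.5, 2058 and 2036 CPM at 0 h and 1712, 1789.5 and 1795 CPM at 6 h, lower in 3 of 3 replicates and without overlap, with an adjusted p of 0.04998 (edgeR) just under the threshold. It was lost without any 1 of 6 libraries, which were all those of 0 h, the 1 h library of replicate 1 and the 6 h libraries of replicates 1 and 2 (adjusted p 0.0581 to 0.272), and its log2 fold change of -0.17 ± 0.06 was -0.11 without the 6 h library of replicate 2. mt-Nd3 had 7.92, 7.55 and 9.72 CPM at 0 h and 7.64, 4.54 and 7.20 CPM at 6 h, and its log2 fold change of -0.40 ± 0.14 (edgeR, adjusted p = 0.0462) was lost without the 0 h or the 6 h library of replicate 2, the 0 h library of replicate 3 or the 6 h library of replicate 1 (0.0589 to 0.295). Without 1 library its log2 fold change ranged from -0.57 (0 h of replicate 1 left out) to -0.22 (6 h of replicate 2 left out). Nearly all bases of mt-Nd3 lie in the copy, so its change is one of uniquely placed reads.

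The remaining mitochondrial genes did not pass. mt-Nd6 had 310, 348 and 345 CPM at 0 h and 278, 302 and 297 CPM at 6 h, without overlap. Its log2 fold change was -0.19 ± 0.07 (edgeR, adjusted p = 0.0568). mt-Nd6 passed without the 1 h library of replicate 1 or 3 or the 6 h library of replicate 1. mt-Cytb had 9751, 8947 and 8589.97 CPM at 0 h and 8449, 8100.2 and 8282 CPM at 6 h. It was lower in each replicate and without overlap, with a log2 fold change of -0.13 ± 0.06 (edgeR, adjusted p = 0.0982). mt-Co1 had 11506, 10441 and 11633 CPM at 0 h and 11806, 10195 and 11439.5 CPM at 6 h, values that lay on top of each other. Its log2 fold change was -0.01 ± 0.05 (edgeR, adjusted p = 0.936). mt-Nd4l (-0.25), mt-Co2 (0.02), mt-Co3 (-0.06), mt-Atp6 (-0.15) and mt-Atp8 (-0.33) had log2 fold changes with adjusted p of edgeR between 0.222 and 0.883, and for the last 4 replicate 1 was higher at 6 h and replicate 2 lower. Single libraries decided the values of the ATP synthase genes. mt-Atp8 went from -0.65 without the 0 h library of replicate 1 (edgeR, adjusted p = 0.00522) to -0.02 without that of replicate 3 (0.954), and mt-Atp6 from -0.28 without the 6 h library of replicate 1 (0.0416) to -0.004 without that of replicate 2 (0.980).

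The block carried these calls. Without it, edgeR called 0 of the 13 genes at 6 h against 0 h (mt-Nd1 adjusted p = 0.560, mt-Nd2 0.236, mt-Nd4 0.126), with 2 at an unadjusted p under 0.05 and 1 called by DESeq2, and with a median log2 fold change of -0.19 as before, and the calls over all genes dropped to 276 higher and 180 lower. When GC and length trends were taken out per library, and the block kept, mt-Nd1 (-0.15), mt-Nd2 (-0.21) and mt-Nd4 (-0.17) still passed, with adjusted p of 0.0187, 0.00955 and 0.0182 by edgeR, and the median over the 13 genes moved to -0.10. Mitochondrial ribosomal RNA differed between libraries: mt-Rnr1 lay between 117 and 595 CPM at 0 h, between 128 and 1219 CPM at 1 h and between 127 and 340 CPM at 6 h, and its part in the results was not tested.

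**Figure D2:**
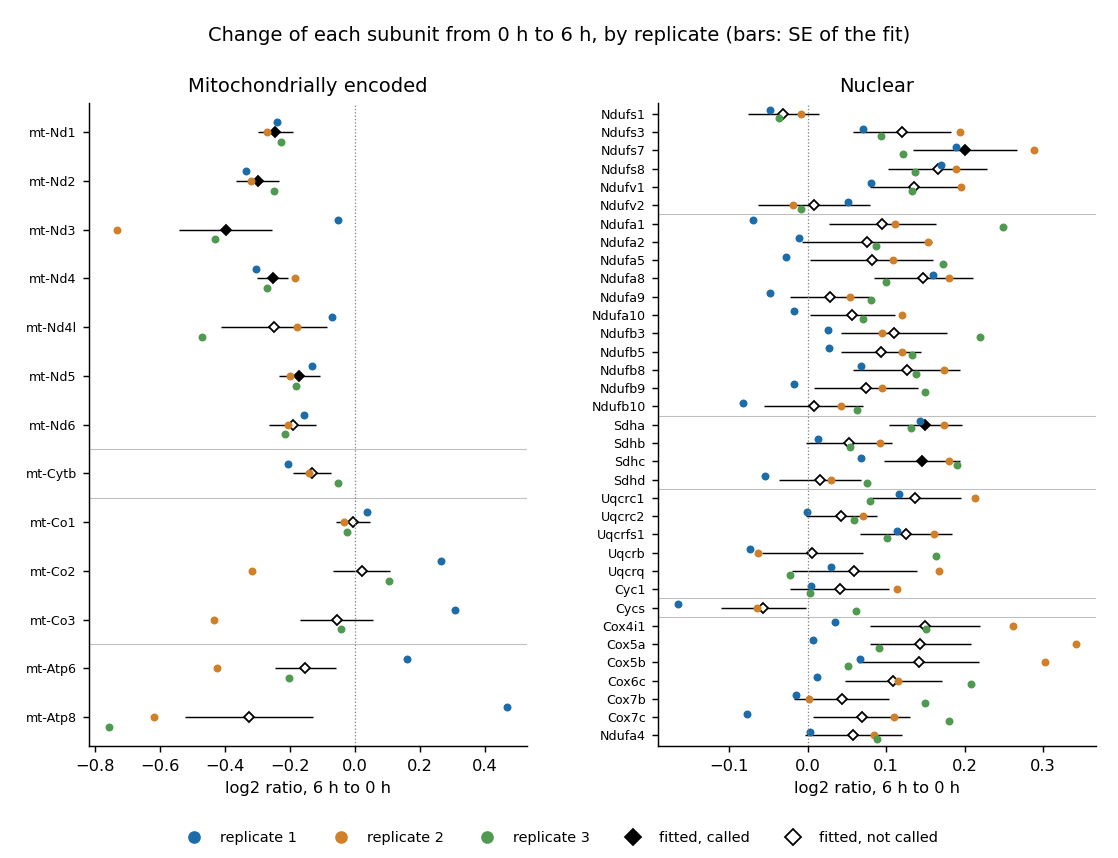
Log2 ratio of 6 h to 0 h for each of the 48 subunits, ordered by complex, with a point per replicate and a diamond for the fitted log2 fold change with its SE (filled where the adjusted p is under 0.05). The mitochondrial complex I genes lie left of 0, with fitted values from -0.40 to -0.17, mt-Co1 lies at -0.01, and 33 of the 35 nuclear subunits lie right of 0.

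At 6 h against 0 h, 3 of the 35 nuclear subunits rose, none fell and 32 did not pass, against the 17.4% of all genes called higher. The log2 fold change was positive for 33, with a median of 0.08 and a range from -0.06 to 0.20. Over all 18858 genes tested, 9426 were positive. No nuclear subunit was called without the 0 h library of replicate 2 or 3 or the 6 h library of replicate 1 or 2, 7 were called without the 6 h library of replicate 3, and the median moved between 0.022 (0 h of replicate 3 left out) and 0.153 (0 h of replicate 1 left out). The 3 were Sdha and Sdhc of complex II and Ndufs7 of complex I. Complex II, the succinate dehydrogenase that also belongs to the citric acid cycle, has no subunit in the mitochondrial DNA. Without the block edgeR called 0 of the 35, with 1 at an unadjusted p under 0.05 and 1 called by DESeq2, and adjusted p were 0.239 for Sdha, 0.838 for Sdhc and 0.475 for Ndufs7.

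Sdha, the flavoprotein that oxidizes succinate (chromosome 13, 74322254 to 74350280), had 456, 462 and 444 CPM at 0 h. At 6 h it had 503.5, 522 and 487 CPM, above every 0 h library. The log2 fold change was 0.15 ± 0.05 (edgeR, adjusted p = 0.0233). The call was lost without any 1 of 5 libraries, the 3 of 0 h and the 6 h libraries of replicates 1 and 2 (adjusted p 0.0718 to 0.0910).

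Sdhc, a membrane anchor of complex II (chromosome 1, 171127165 to 171150603), had 242, 157 and 166 CPM at 0 h and 254, 178 and 189 CPM at 6 h. The groups overlapped because replicate 1 was high at each time point, and the log2 fold change was 0.15 ± 0.05 (edgeR, adjusted p = 0.0345). It was lost without any 1 of 5 libraries, the 0 h libraries of replicates 2 and 3 and the 3 of 6 h (0.0556 to 0.188). Ndufs7, which carries the last iron-sulfur cluster of complex I (chromosome 10, 80249121 to 80256794), had 45.3, 37.7 and 45.9 CPM at 0 h and 51.7, 46.1 and 49.9 CPM at 6 h. Its log2 fold change was 0.20 ± 0.07 (edgeR, adjusted p = 0.0326), and it was lost without the 6 h library of replicate 1 or 2 or the 0 h library of replicate 2 or 3 (0.129 to 0.1505). With GC and length trends removed it was 0.11 (edgeR, adjusted p = 0.121), while Sdha and Sdhc kept 0.14 each.

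The 1 h library of replicate 3 does not enter the 6 h and 0 h means but enters the estimate of the spread. Without it, 13 nuclear subunits were called higher and 7 mitochondrial genes lower at 6 h against 0 h, and the medians were 0.09 and -0.19. Calls over all genes rose as well, from 3282 higher and 3299 lower of 18858 to 3996 higher and 4055 lower of 19318. The 10 further nuclear subunits were Ndufs3, Ndufs8, Ndufv1, Ndufa8, Ndufb8, Uqcrc1, Uqcrfs1, Cox4i1, Cox5b and Cox6c, and the further mitochondrial genes were mt-Nd6 and mt-Cytb. Fitted on the 6 libraries of 0 h and 6 h only, 12 nuclear subunits were higher and 7 mitochondrial genes lower. Over all 18312 genes of that fit, 3788 were called higher and 3752 lower.

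By complex, the medians of the nuclear subunits at 6 h lay close together. The median was 0.13 for the 6 core complex I subunits and 0.08 for the 11 accessory ones on the log2 scale. The 4 subunits of complex II had a median of 0.10, the 6 of complex III 0.05 and the 7 of complex IV 0.11. Cycs was at -0.06 (edgeR, adjusted p = 0.459) and Ndufs1, the large iron-sulfur subunit of complex I, at -0.03 (0.638), the only 2 nuclear subunits below 0.

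**Figure D3:**
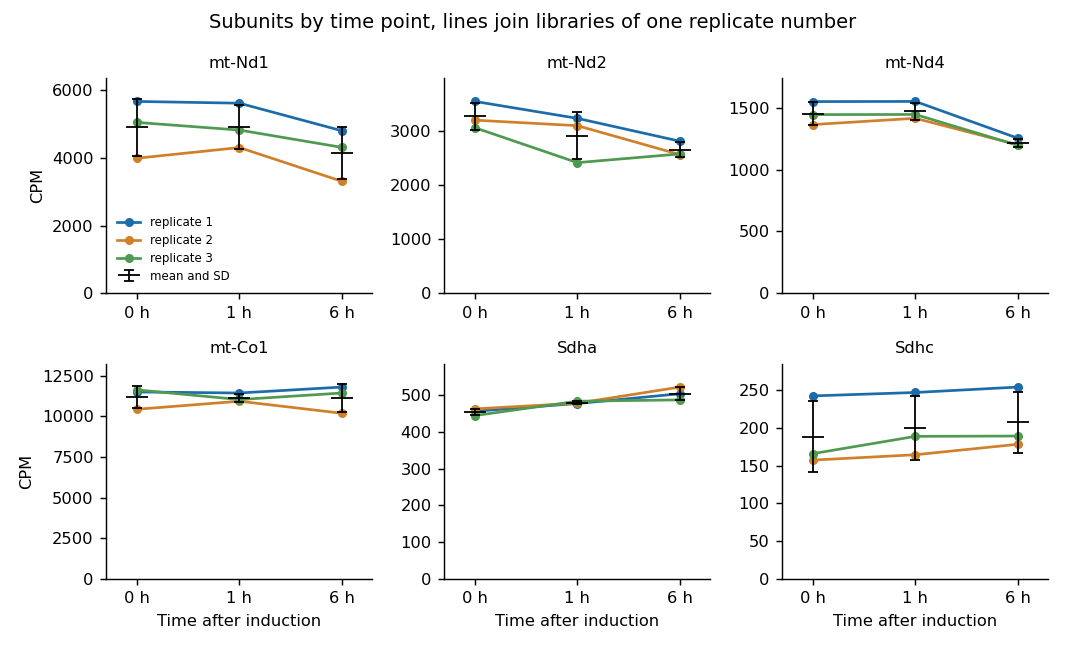
CPM by time point of mt-Nd1, mt-Nd2, mt-Nd4, mt-Co1, Sdha and Sdhc, with lines joining the libraries of one replicate number and black marks for the mean and SD of 3 libraries. The complex I genes drop between 0 h and 6 h in each replicate (mt-Nd4 lies between 1198 and 1256 CPM at 6 h), mt-Co1 stays between 10195 and 11806 CPM, and replicate 1 of Sdhc lies above the other two throughout.

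The summed counts compare both genomes within a library. The 13 mitochondrial genes took 3.39%, 3.10% and 3.20% of the counts at 0 h and 3.15%, 2.80% and 3.05% at 6 h in replicates 1 to 3, and the 35 nuclear subunits took 0.493%, 0.476% and 0.447% at 0 h and 0.513%, 0.518% and 0.489% at 6 h. The ratio of mitochondrial to nuclear counts was 6.87, 6.51 and 7.17 at 0 h and 6.13, 5.41 and 6.23 at 6 h, so every 6 h library was below every 0 h library. Within a replicate the ratio at 6 h was 0.832 to 0.892 of that at 0 h, a mean log2 ratio of -0.21 ± 0.05 (SD, n = 3). At 1 h it was 6.55, 6.44 and 5.45, and the low value was that of the 1 h library of replicate 3. mt-Co1, mt-Cytb and mt-Nd1 made up 76.7% to 80.2% of the mitochondrial counts, so the sum follows these genes.

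Within the mitochondrial genes the balance also shifted. The summed counts of the 7 complex I genes were 1.13, 1.05 and 1.03 times those of mt-Co1 at 0 h, 1.08, 1.03 and 0.971 times at 1 h, and 0.921, 0.900 and 0.890 times at 6 h. Each 6 h library was below each library of 0 h and 1 h, and within a replicate the ratio at 6 h was 0.817 to 0.867 of that at 0 h. This ratio does not depend on the scaling of the libraries. It shows unequal change of the complex I genes and mt-Co1 and does not fix which of them changed.

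At 1 h against 0 h, none of the 48 subunits was called by edgeR with the block, against 1.36% of all genes called higher and 2.14% called lower. All 35 nuclear subunits had a positive log2 fold change, from 0.03 to 0.24 with a median of 0.14, and 18 of them had an unadjusted p under 0.05. Over all 18858 genes tested, 9459 were positive and 3438 had an unadjusted p under 0.05. Of the related lists described below, 16 of 16 nuclear ATP synthase subunits and 17 of 19 further complex I subunits were positive. So were 70 of 77 mitochondrial ribosomal proteins and 21 of 22 citric acid cycle genes. Positive values were fewer among assembly factors (26 of 42), genes serving the mitochondrial genome (7 of 29) and biogenesis regulators (6 of 17). The counts of these lists include the 1 h library of replicate 3 and were not made without it. The replicates differed: the median log2 ratio over the 35 genes was 0.04 in replicate 1, 0.07 in replicate 2 and 0.32 in replicate 3. Without the 1 h library of replicate 3 the fitted median was 0.06. DESeq2 with the block called 5 nuclear subunits higher, Uqcrc1, a core protein of complex III, with Uqcrq, Cox5b, Ndufs8 and Ndufv1, and called 0 without that library. Over all 18858 genes, DESeq2 with the block and all libraries called 375 higher and 562 lower.

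Uqcrc1, named here after its values were seen, had 283, 239.7 and 275 CPM at 0 h and 302, 269 and 343 CPM at 1 h. It was higher in each replicate and the groups overlapped, with a log2 fold change of 0.20 ± 0.06 (edgeR, adjusted p = 0.0929; DESeq2, adjusted p = 0.0248). Without the 1 h library of replicate 3 it was 0.12 by either tool (adjusted p of 0.148 by edgeR and 0.137 by DESeq2). Of the 13 mitochondrial genes, 3 had an unadjusted p under 0.05 at 1 h, DESeq2 called 0, and the median log2 fold change was -0.04, or 0.03 without the 1 h library of replicate 3. mt-Nd1 was at 0.01 (edgeR, adjusted p = 0.940) and mt-Nd4 at 0.02 (0.880) at 1 h, while mt-Nd2 was at -0.17 (0.187), or -0.07 without the 1 h library of replicate 3. mt-Atp8 had the lowest fitted value of the 13, -0.52 ± 0.20 (0.189), from 406 to 902 counts per library. It was -0.83 without the 0 h library of replicate 1 (edgeR, adjusted p = 0.0104), -0.29 without the 1 h library of replicate 3 (0.560) and -0.23 without the 0 h library of replicate 3 (0.713).

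**Figure D4:**
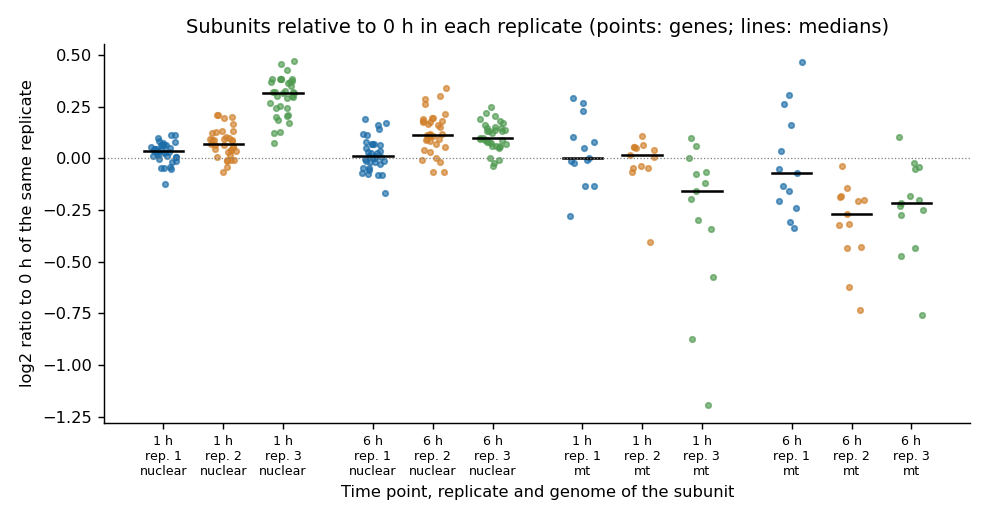
Log2 ratio of CPM to the 0 h library of the same replicate for the 35 nuclear and 13 mitochondrial (mt) subunits at 1 h and 6 h, a point per gene and a line at the median. The nuclear subunits at 1 h have medians of 0.04, 0.07 and 0.32 in replicates 1 to 3, and the mitochondrial genes at 6 h of -0.07, -0.27 and -0.22.

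From 1 h to 6 h, mt-Nd1 and mt-Nd4 fell and no other mitochondrial gene passed, against 17.5% of all genes called lower and 18% called higher. mt-Nd4 went from 1554, 1417.5 and 1448 CPM at 1 h to 1256, 1203 and 1198 CPM at 6 h, without overlap, a log2 fold change of -0.27 ± 0.05 (edgeR, adjusted p = 0.000774). mt-Nd1 went from 5618, 4307 and 4823 CPM to 4804, 3308 and 4312 CPM, a log2 fold change of -0.26 ± 0.05 (edgeR, adjusted p = 0.00257), lower in 3 of 3 replicates. Without the block edgeR lost both calls (adjusted p of 0.543 for mt-Nd1 and 0.112 for mt-Nd4). DESeq2 without the block called 1 mitochondrial gene lower, and this was not mt-Nd1 (adjusted p of 0.498 by DESeq2). With the block, edgeR also lost the call of mt-Nd1 without all of replicate 2 (0.0781). Without the 1 h library of replicate 3, mt-Nd2, mt-Nd3 and mt-Cytb also passed and 5 genes were called. mt-Nd6 passed without the 1 h library of replicate 1 (edgeR, adjusted p = 0.00250).

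For the nuclear subunits, 0 of 35 were called at 6 h against 1 h by edgeR and by DESeq2, with 2 at an unadjusted p under 0.05. The median log2 fold change was -0.06 and 30 were negative, but without the 1 h library of replicate 3 the median was 0.03. Over all 18858 genes tested, 9459 were negative. The smallest adjusted p was that of Cycs, at -0.13 ± 0.05 (edgeR, adjusted p = 0.0743). The 3 comparisons share libraries and are not independent of each other.

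Between replicates, the subunits encoded on chromosome 1 stood apart. These were Cox5b, Ndufb3, Ndufs1, Ndufa10 and Sdhc, and their level in replicate 1 was above the mean of replicates 2 and 3 by a median log2 difference of 0.59 at 0 h, 0.49 at 1 h and 0.51 at 6 h. Cox5b had 187, 103.5 and 126 CPM in replicates 1 to 3 at 0 h and 196, 128 and 131 CPM at 6 h. The median over all 1280 tested genes of chromosome 1 was 0.44, 0.46 and 0.44 in the same comparison, and that over the 30 subunits on other chromosomes was 0.04, -0.13 and -0.06. The cause was not tested. Other subunits differed between replicates one by one, as Cox5a, with 53.0, 28.3 and 51.4 CPM at 0 h, and Ndufa4, with 197.5, 263 and 209 CPM. These differences are what the block takes up.

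**Figure D5:**
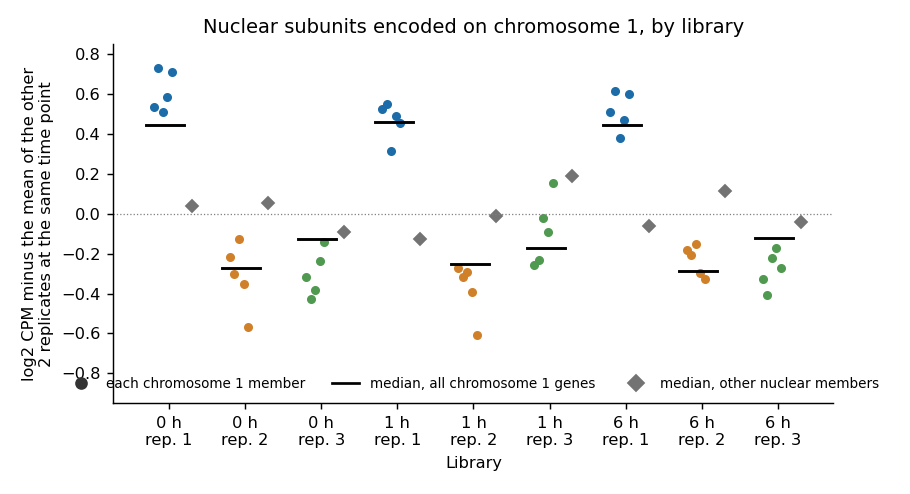
Log2 CPM of each library minus the mean of the other 2 replicates at the same time point, for the 5 nuclear subunits on chromosome 1 (points), the median over 1280 chromosome 1 genes (line) and the median over the 30 nuclear subunits of other chromosomes (diamond). In replicate 1 the 5 subunits lie between 0.31 and 0.73 at each time point, and the other subunits lie near 0.

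The rest of the pathway was described with lists of related genes, in fits that include the 1 h library of replicate 3. The counts of these lists stand beside shares over all genes of 17.4% called higher and 17.5% lower at 6 h against 0 h. The shares were 18% and 17.5% at 6 h against 1 h, and 1.36% and 2.14% at 1 h against 0 h. Of 19 further complex I subunits, 1 rose at 6 h against 0 h and none fell (median log2 fold change 0.08), and it was the accessory subunit Ndufv3, at 0.30 ± 0.07 (edgeR, adjusted p = 0.00401). Of 11 tested genes of complexes III and IV, Cox8a (0.24, adjusted p = 0.00598) and Cox6a1 (0.22, 0.0161) rose and none fell. Cox8a was the only gene of these lists of subunits called at 1 h against 0 h (0.24, edgeR, adjusted p = 0.0357). Of 16 nuclear ATP synthase subunits edgeR called 0 at 6 h, with 3 at an unadjusted p under 0.05 and 2 called higher by DESeq2, and the median was 0.07. Between 1 h and 6 h, Ndufv3 was higher (0.22) and Ndufa11 lower (-0.20, edgeR, adjusted p = 0.0426).

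Of 22 genes of the citric acid cycle list, 10 rose at 6 h against 0 h and none fell, with a median of 0.11, beside 17.4% of all genes called higher and 17.5% lower. Idh1, the cytosolic isocitrate dehydrogenase, had the largest change, from 371 ± 43.6 to 541 ± 102 CPM (SD, n = 3), a log2 fold change of 0.53 (edgeR, adjusted p = 1.55e-05). Ogdh, a subunit of the 2-oxoglutarate dehydrogenase, was at 0.29 (0.000434), and the mitochondrial Idh2 at 0.27 (0.00137). From 1 h to 6 h 4 rose and 1 fell, with Idh1, Ogdh and Aco1, the cytosolic aconitase, in the lead (0.41, 0.28 and 0.24).

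Of 29 genes that copy, transcribe and process the mitochondrial genome, 9 fell and 3 rose at 6 h against 0 h (median -0.05), beside the same 17.5% lower and 17.4% higher over all genes. The largest changes were the RNA-binding Fastkd2 (-0.43, edgeR, adjusted p = 3.29e-05), the transcription factor Tfb2m (-0.39, 0.000333) and Fastkd3 (-0.37, 0.000415). Tfam, which packages mitochondrial DNA and starts its transcription, was at -0.13 ± 0.05 (edgeR, adjusted p = 0.0597), and the RNA polymerase Polrmt at 0.14 ± 0.06 (0.0883). From 1 h to 6 h 7 fell and 2 rose, and the rises were Fastkd1 (0.52, 3.84e-05) and Mterf2 (0.41, 0.000469).

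Of 77 mitochondrial ribosomal proteins, 15 fell and 1 rose from 1 h to 6 h (median -0.11), and 6 fell and 1 rose at 6 h against 0 h (median -0.03), while 17.5% of all genes were called lower in either comparison. Mrps6 had the largest change, from 189 ± 28.6 CPM at 0 h and 193 ± 23.0 at 1 h to 123 ± 18.8 at 6 h, a log2 fold change of -0.62 against 0 h (edgeR, adjusted p = 3.89e-06). Mrpl49 and Mrpl50 followed at 6 h against 0 h (-0.26 and -0.25), and Mrpl54 and Mrps9 at 6 h against 1 h (-0.31 each). Among 42 tested assembly factors, 4 rose and 4 fell at 6 h against 0 h. They were led by Ndufaf3 of complex I (0.39, edgeR, adjusted p = 0.0160), Nubpl, which delivers iron-sulfur clusters to complex I (-0.39, 0.00304), and the copper chaperone Cox17 (0.36, 0.0202). From 1 h to 6 h 3 rose and 6 fell, led by Cox17 (0.42), Nubpl (-0.38) and Tmem126b, a complex I assembly factor (0.31).

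Of 17 regulators of mitochondrial biogenesis, 3 rose and 7 fell at 6 h against 0 h, beside 17.4% and 17.5% of all genes. Ppargc1a, the coactivator of respiratory genes known as PGC-1alpha, had 71.8, 79.3 and 68.7 CPM at 0 h and 110.2, 114 and 92.9 CPM at 6 h, without overlap, a log2 fold change of 0.52 ± 0.06 (edgeR, adjusted p = 1.98e-05). Ppara, a receptor for fatty acids, rose by 0.92 (7.68e-05), to 4.16 CPM. Ppargc1b, the relative of Ppargc1a, was at -0.81 (0.000535) and Myc at -0.53 (0.000236). Gabpa, a factor that binds promoters of respiratory genes, was lower at -0.25 ± 0.05 (edgeR, adjusted p = 0.00120), while Nrf1 (-0.03, 0.692) and Esrra (-0.07, 0.473) did not pass. At 1 h, Myc (-0.53, edgeR, adjusted p = 0.00241), Pprc1 (-0.27, 0.0161) and Prkaa1, the catalytic subunit of the energy sensor AMPK (-0.24, 0.0234), were lower. Between 1 h and 6 h 3 rose and 5 fell, with Ppara (1.35), Pparg (0.79, at under 1 CPM) and Ppargc1a (0.49) leading. Without the block edgeR called no more than 1 gene of any related list in either direction in any of the 3 comparisons. Ppargc1a then had an adjusted p of 0.0673 by edgeR.

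RefSeq promoter sequences were matched for 25 of the 35 nuclear subunits (GRCm38.p6, 250 bases before to 50 after the start). The NRF1 motif GCGCATGC or its reverse stood in 16% of them, the 4 of Cycs, Ndufa8, Sdhb and Uqcrc1, against 3.76% of 16521 promoters. The ETS motif CCGGAAG, bound by GABPA, stood in 16% against 12.3%, the YY1 motif GATGGCG in 12% against 4.67%, and TATAAA in 4% against 12.9%. These are matches of letters on either strand and not measured binding.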

How the data were processed

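RNA-seq libraries of 3 time points with 3 replicates each (9 libraries) were used. Per the labels, mRNA libraries were stranded. The authors aligned paired-end reads to mm10 (GRCm38), counted them per Ensembl gene with STAR 2.5.3a, checked quality with FastQC and tested with DESeq2 1.22.1 without naming a covariate. The deposited values are raw counts, whole numbers that were not normalised. No library repeated another (chi-square per degree of freedom at least 13.6).

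The counts were fitted with edgeR 4.0.16 in R 4.3.3 (filterByExpr with a minimum count of 10 and a minimum total of 15, TMM, glmQLFit and glmQLFTest), with time point and replicate number as terms in 1 fit of 9 libraries and Benjamini-Hochberg adjustment over 18858 genes (threshold 0.05). CPM are counts over the TMM-scaled library size, times 1e+06, and lengths are the exon bases of GENCODE M21, which held 48144 of 48526 identifiers. The number was used as a block because the rule of this part pairs the libraries by the letter in their titles, which matches the number. After subtraction of time point means, libraries with the same number correlated at 0.733 to 0.800 (9 pairs), and others at -0.462 to -0.314 (18 pairs). Deviations from a mean of 3 libraries are tied to each other, so the negative values follow from the positive ones. The pairing comes from the labels.

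Copies were searched with BLAST 2.17.0 against GENCODE M21 transcripts (at least 40 bases, near-identical from 99%), and only annotated transcripts were searched. Tables and figures used Python 3.11.15, pandas 2.3.3, numpy 2.4.6 and matplotlib 3.10.9. The edgeR fits were run on counts simulated from the block fit itself, which cannot show whether the block holds for these libraries. Alternatives were the fit without the block, DESeq2 1.42.0, other scalings and filters, GC and length splines (4 degrees of freedom, 99.6% of genes), only the 6 libraries compared, a stricter threshold and leaving out libraries.

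The members and the lists of related genes were chosen with earlier results of these data known. Genes named are the 13 mitochondrial members, called nuclear members (up to 6 per direction), the 5 highest and 3 lowest nuclear members per length, up to 3 called genes per related list and comparison with the same direction in 3 of 3 replicates, and Ppargc1a, Nrf1, Gabpa, Esrra, Tfam and Polrmt. Splicing and protein levels were not analysed here.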

Additional observations from a re-analysis of the deposited data

How the results depend on the processing

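The replicate block decided most calls. Without it, edgeR called 0 nuclear and 0 mitochondrial genes in each comparison where the block gave calls, that is 0 in place of 3 nuclear and of 5 mitochondrial genes at 6 h against 0 h and 0 in place of 2 mitochondrial genes at 6 h against 1 h, and DESeq2 without the block called 1, 1 and 1. DESeq2 with the block called 5 nuclear subunits at 1 h and otherwise stayed within 1.5 times. Without a filter on low counts there were 7 nuclear and 2 mitochondrial calls at 1 h, 9 and 8 at 6 h against 0 h and 1 and 5 at 6 h against 1 h. Over all 31382 genes of that setting, calls were 581 higher and 788 lower at 1 h. They were 3635 and 3209 at 6 h against 0 h and 3725 and 3239 at 6 h against 1 h. With GC and length trends removed there was 1 nuclear call at 1 h, 1 nuclear call at 6 h against 1 h (Cyc1, lower) and 3 mitochondrial calls at 6 h against 0 h. The nuclear calls at 6 h against 0 h were then Sdha, Sdhc and Cox5a (0.20, edgeR, adjusted p = 0.0268), while Ndufs7 was lost. At 6 h against 0 h, nuclear and mitochondrial calls were 5 and 3 without a scaling factor, 6 and 3 where genes under a mean of 1 CPM were dropped, and 0 and 3 at an adjusted p under 0.01, and only the 6 libraries compared gave 12 nuclear calls. The mean log2 ratio of the mitochondrial share at 6 h to 0 h was -0.11 of the total count and -0.21 of the nuclear member count.

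DESeq2 with the block and without the 1 h library of replicate 3, a setting chosen after seeing the data, called 12 nuclear subunits at 6 h against 0 h, 5 mitochondrial genes at 6 h against 1 h and 0 nuclear subunits at 1 h.

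Leaving out libraries or replicates gave 0 to 13 nuclear and 3 to 7 mitochondrial calls at 6 h against 0 h, 0 to 1 and 1 to 5 at 6 h against 1 h, and 0 and 0 to 1 at 1 h. The medians ranged, for nuclear and mitochondrial genes, from 0.06 to 0.20 and from -0.09 to 0.03 at 1 h, from 0.022 to 0.153 and from -0.24 to -0.13 at 6 h against 0 h, and from -0.09 to 0.03 and from -0.19 to 0.01 at 6 h against 1 h. At 6 h against 1 h, 1 nuclear call came without the 1 h library of replicate 1 or without all of replicate 1 or 3, and at 1 h the mitochondrial call (mt-Atp8) came without the 0 h library of replicate 1 or all of replicate 1. Of the named subunits' called values, 0 of 8 at 6 h against 0 h and 0 of 2 at 6 h against 1 h changed sign under any alternative, while 10 of 13, 3 of 8 and 7 of 11 values that were not called did (1 h against 0 h, 6 h against 0 h and 6 h against 1 h). The causes were not tested. Called values had been selected as large against their SE, so their contrast with the others was set in part by that selection. Depth limits mt-Nd4l, mt-Nd3 and mt-Atp8, with 144 to 307, 413 to 772 and 406 to 902 counts per library.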
